A study of Rattus norvegicus with 4 samples.

Results

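The miR-30 family was followed in small RNA from rat exosomes, which are vesicles shed by cells. Its members were taken by name: every sequenced read aligned to a hairpin named rno-mir-30a, rno-mir-30b, rno-mir-30c, rno-mir-30d or rno-mir-30e, with genomic copies of a hairpin summed. These are 5 of the 262 named rat miRNA precursors with counts, carried on 6 hairpins, and their reads made up 161 distinct read sequences (tags). Exo-AT are vesicles of minced adipose tissue explants from SD (Sprague-Dawley) rats aged 4 weeks, stirred in 75 mL of α-MEM at 100 rpm for 3 days. Exo-ADSCs are vesicles of passage 3 adipose stem cells of the same study, kept for 3 days in α-MEM without serum. Both media held penicillin and streptomycin, and no other agent or genotype is named. Each group has 2 libraries. Neither the number of animals, the fat depot nor the origin of the replicates is given, so the tests see only how far these libraries lie apart, which may be technical.

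miRNAs are cut from a hairpin whose 5′ arm (5p) and 3′ arm (3p) can each leave a mature RNA of about the same length. The mature RNA finds target messages chiefly through its seed, bases 2 to 8. The miR-30 5p forms share one seed. In human adipose stem cells miR-30a and miR-30d are known to favour fat cell formation by targeting RUNX2, and in mouse fat cells miR-30b and miR-30c are known to favour the thermogenic programme by targeting RIP140. In the RefSeq annotation (GRCr8) the genes of miR-30b and miR-30d are neighbours, as are those of miR-30c-1 and miR-30e, which lie within Nfyc, and those of miR-30a and miR-30c-2 lie close together.

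The mature sequences below are RefSeq's (GRCr8 annotation), shown because the seed defines the family and 1 base separates the abundant forms miR-30a-5p and miR-30e-5p. Capitals mark the seed.
rno-miR-30a-5p: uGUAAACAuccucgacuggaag
rno-miR-30e-5p: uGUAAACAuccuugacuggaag
rno-miR-30c-5p: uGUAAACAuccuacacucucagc
rno-miR-30a-3p: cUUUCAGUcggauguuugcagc

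The first 12 bases were identical in the 3 5p sequences. Counted from 1 at the 5′ end, miR-30e-5p differs from miR-30a-5p by C13U alone. miR-30c-5p differs from miR-30a-5p at 5 positions, of which C13A and G14C come first. The 3p form of miR-30a has another seed.

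Tag counts were available for 3 libraries, and for Exo-ADSCs replicate 1 the authors' deposited table is the only source. Named hairpins held 9134 and 136024 reads in Exo-AT replicates 1 and 2, against 97204 in Exo-ADSCs replicate 2. These were 60.1% and 75.1% of all counts assigned to hairpins in Exo-AT, against 13.6% in Exo-ADSCs, where most counts lay on hairpins that the authors predicted; the part of this difference in the results was not tested. Levels are TMM-scaled CPM, that is CPM over the reads on named miRNAs after edgeR's TMM scaling. Where 0 counts were seen, up to 3 are allowed, or 237, 20.4 and 46.8 CPM in these libraries. Exo-AT replicate 1 is thus the shallow library. Inside their tag files the Exo-AT libraries bear one and the same name, yet their counts differ beyond sampling noise over 79 named miRNA forms (chi-square 1494, 78 degrees of freedom, p = 9.97e-261). Over the 4 miR-30 forms that entered that check, they also differ (chi-square 13.6, 3 degrees of freedom, p = 0.00352). In the authors' deposited table the values headed for Exo-AT replicate 1 are 5.19 to 5.44 times the tag counts of Exo-AT replicate 2 for 4 of 4 miR-30 entries, and 31.3 to 84.1 times those of Exo-AT replicate 1. The values headed for Exo-AT replicate 2 keep no fixed ratio to either library. They are 4.92 to 31.2 times the counts of Exo-AT replicate 1 and 0.349 to 5.42 times those of Exo-AT replicate 2. The replicate numbers of the table and of the tag files therefore may not name the same library, but both belong to Exo-AT.

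Vesicles of adipose tissue carried a larger share of miR-30 than those of the stem cells. The family took 3.38% of named miRNA counts in Exo-AT replicate 1 (95% Wilson interval 3.03 to 3.77) and 3.23% in Exo-AT replicate 2 (3.14 to 3.32). It took 0.351% in Exo-ADSCs replicate 2 (0.316 to 0.390). These intervals cover counting error only, since the reads carry no molecular identifiers. Summed over the 5p forms, miR-30 stood at 22527 and 28807 TMM-scaled CPM in the Exo-AT libraries, a mean of 25667 ± 4440 (SD, n = 2), against 5034 in Exo-ADSCs, or 5.10-fold higher. This sum was not tested; the test was fitted per form. More vesicles of a kind and more miRNA per vesicle cannot be told apart in these bulk libraries.

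Of the 10 possible forms (2 arms of 5 members), 8 had counts and 7 passed the filter on low counts. In edgeR's quasi-likelihood fit, with p-values adjusted by the Benjamini-Hochberg method over 183 miRNAs, 4 of the 7 forms rose in Exo-AT, 0 fell and 3 were not called. The background was 19.1% of all tested miRNAs called higher and 19.1% called lower. The median log2 fold change, Exo-AT over Exo-ADSCs, was 2.17 over the 7 miR-30 forms and 0.37 over all 183 tested. The call of higher rested on 2 Exo-AT libraries and 1 Exo-ADSCs library, with 1 residual degree of freedom. All 4 calls were lost when the authors' predicted hairpins entered the fit as further features: then 0 of 401 features were called by edgeR, with 25 at an unadjusted p under 0.05, none of them a miR-30 form. DESeq2 on the named miRNAs called 4 of 5 forms higher, with 17.1% of all it tested called higher. In edgeR, 4 forms were higher with total-count scaling (background 25.1% higher), with no filter on low counts (8.33%), with tags of a single named miRNA (17.4%) and with tags within 1 nt of the common start (20.9%). With DESeq2's size factors 3 forms were higher (12.6%), and with tags of 20 to 25 nt only 3 were higher (23.1%) and 1 lower (22.3%).

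miR-30a-5p, one of the forms known to favour fat cell formation, was the most abundant member. Exo-AT gave 154 and 2170 counts of it, against 192 in Exo-ADSCs, which are 12173 and 14761 against 2992 TMM-scaled CPM. Both Exo-AT libraries lay above the Exo-ADSCs library. Its log2 fold change was 2.17 (SE 0.35, edgeR quasi-likelihood adjusted p = 3.33e-08). Among all named forms it ranked 10th and 9th in the Exo-AT libraries and 27th in Exo-ADSCs.

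miR-30d-5p, the other form known from human adipose stem cells, rose further in this fit. It had 97 and 1570 counts in Exo-AT against 76 in Exo-ADSCs, or 7667 and 10679 against 1184 TMM-scaled CPM. Again both Exo-AT values lay above the Exo-ADSCs value, and the Exo-AT mean was 9173 ± 2130 (SD, n = 2). The log2 fold change was 2.96 (SE 0.39, edgeR adjusted p = 2.3e-11). The run CATC, which begins within the seed, was used to find the seed region. Of the counts of miR-30d-5p, 3 of 97, 71 of 1570 and 17 of 76 came from tags of 15 to 16 nt without that run. These are for Exo-AT replicates 1 and 2 and Exo-ADSCs. Keeping only tags within 1 nt of each form's common start, the log2 fold change of miR-30d-5p was 3.65. That choice leaves 43 of the 76 Exo-ADSCs counts, since it also drops tags with CATC and extra 5′ bases. Of the 76, 59 hold CATC, and changes in their other seed bases were not checked.

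miR-30e-5p, which shares the seed and all but 1 base of miR-30a-5p, had 34 and 467 counts in Exo-AT against 32 in Exo-ADSCs. These are 2688 and 3177 against 499 TMM-scaled CPM, with no overlap between the groups. Its log2 fold change was 2.56 (SE 0.53, edgeR adjusted p = 1.83e-05).

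**Figure D1:**
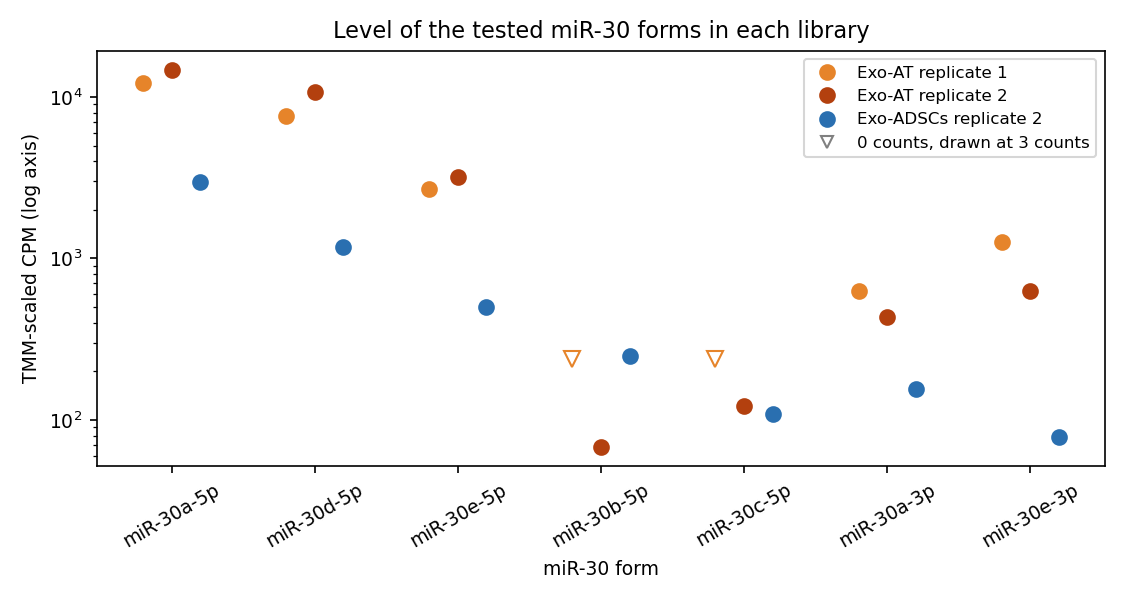
TMM-scaled CPM of the 7 tested miR-30 forms on a log axis, 1 point per library, with Exo-AT in orange and brown and Exo-ADSCs in blue. Open triangles stand for 0 counts and are drawn at the level of 3 counts, so they are bounds and not levels. The abundant 5p forms and both 3p forms lie higher in both Exo-AT libraries. For miR-30b-5p and miR-30c-5p, Exo-AT replicate 1 is such a triangle. In Exo-AT replicate 2, miR-30b-5p lies below Exo-ADSCs and miR-30c-5p slightly above. The miR-30c-5p point of Exo-ADSCs holds 7 counts of 1 tag without the seed.

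The remaining 5p members were scarce in every library. miR-30b-5p, of the pair known from mouse fat cells, had 0 and 10 counts in Exo-AT against 16 in Exo-ADSCs, or 0 and 68.0 against 249 TMM-scaled CPM. Its log2 fold change was -2.13 (SE 1.73), which did not pass edgeR's test (adjusted p = 0.345). In the shallow Exo-AT replicate 1, 0 counts allow up to 237 TMM-scaled CPM, just under the 249 of Exo-ADSCs. At this depth the 0 counts there thus say little about a difference.

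miR-30c-5p had 0 and 18 counts in Exo-AT against 7 in Exo-ADSCs, with a log2 fold change of -0.20 (SE 2.01, edgeR adjusted p = 0.952). The 7 counts in Exo-ADSCs were 1 tag of 15 nt that does not hold the seed, so 0 counts of the mature arm remained there. The 18 counts in Exo-AT replicate 2 all carried the mature start. The leading tag had 16 of them, but at most 8 in any 1 entry, since counts were summed over hairpin copies. Fewer than 18 reads may thus lie behind the folds and shares of miR-30c-5p. With tags near the common start only, or with total-count scaling, the sign of its log2 fold change turned to 5.81 and 0.53, neither of them called. It was 0.16 when Exo-AT replicate 1 was left out. With Exo-AT replicate 2 left out, 0 counts remained in Exo-AT for miR-30b-5p and miR-30c-5p alike, so no fold is given; with replicate 1 left out, miR-30b-5p was at -1.86.

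The make-up of the family's 5p counts is given per library, since Exo-ADSCs had 1 library and the intervals cover counting error only. miR-30a took 54.0% and 51.2% of the miR-30 5p counts in Exo-AT, against 59.4% in Exo-ADSCs. miR-30d took 34.0% (95% Wilson interval 28.8 to 39.7) and 37.1% (35.6 to 38.5) in Exo-AT, against 23.5% (19.2 to 28.4) in Exo-ADSCs. miR-30e took 11.9% and 11.03% against 9.91%. miR-30b took 0% and 0.236% against 4.95%, and miR-30c took 0% and 0.425% against 2.17%. The 0.425% may be too high, because its reads may be counted once per hairpin copy. The 2.17% is the 15 nt tag without the seed: with tags near the common start only, an alternative chosen after seeing the data, miR-30c took 0% and 0.434% in Exo-AT, against 0% in Exo-ADSCs. The order miR-30a, miR-30d, miR-30e held in all 3 libraries, and with all tags the neighbouring Wilson intervals did not overlap. With tags near the common start only, miR-30d (16.4%, 12.4 to 21.4) and miR-30e (12.2%, 8.79 to 16.7) overlapped in Exo-ADSCs, while in Exo-AT miR-30d took 33.3% and 36.1% and miR-30e 12.1% and 11.3%. Below them, the intervals of miR-30e and miR-30b overlapped in Exo-ADSCs, as did those of miR-30b and miR-30c.

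**Figure D2:**
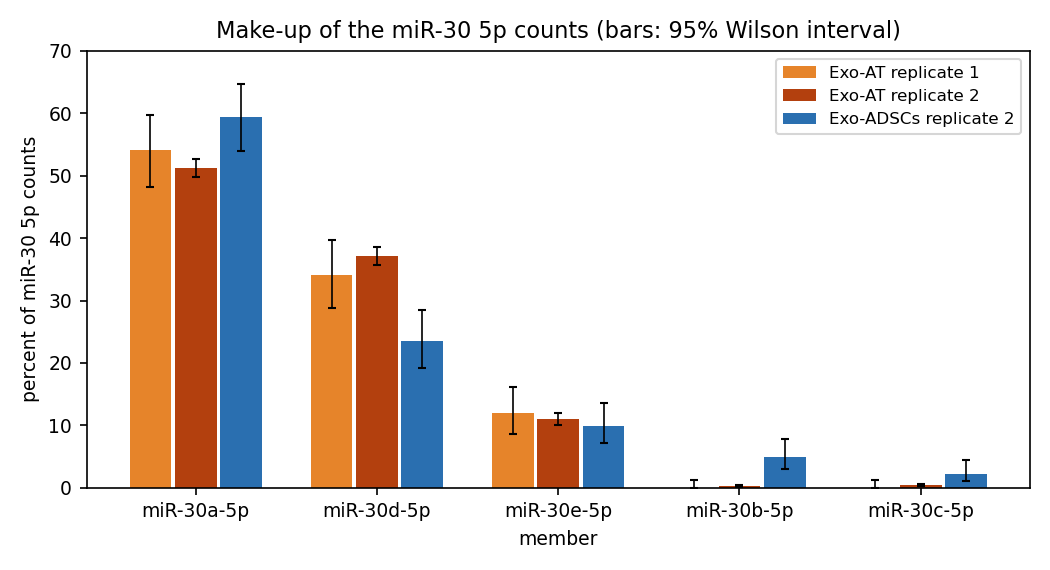
Share of the miR-30 5p counts taken by each member in each library, in percent, with 95% Wilson intervals for counting error. miR-30a leads in all 3 libraries, the miR-30d share is 34.0% and 37.1% in Exo-AT against 23.5% in Exo-ADSCs, and miR-30b is at most 0.236% in Exo-AT against 4.95% in Exo-ADSCs; the miR-30c bar of Exo-ADSCs holds 7 counts of 1 tag without the seed.

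Neighbouring genes of the family did not give equal counts. miR-30d-5p and miR-30b-5p, whose genes lie next to each other, stood at 157 to 1 in Exo-AT replicate 2 (exact 95% interval 85.1 to 328) and at 4.75 to 1 in Exo-ADSCs (2.75 to 8.73). In Exo-AT replicate 1 they had 97 and 0 counts. miR-30e-5p and miR-30c-5p, of which 1 copy of miR-30c neighbours miR-30e, stood at 25.9 to 1 in Exo-AT replicate 2 (16.2 to 44.2) and 4.57 to 1 in Exo-ADSCs (1.98 to 12.3). The last value falls away if the 7 counts without a seed are set aside. The 25.9 may be too low, because miR-30c-5p reads in Exo-AT replicate 2 may be counted once per hairpin copy. The ratio of miR-30d-5p to miR-30a-5p was 0.630 (0.483 to 0.817) and 0.724 (0.678 to 0.772) in Exo-AT, against 0.396 (0.299 to 0.519) in Exo-ADSCs, so the interval of Exo-AT replicate 1 overlaps that of Exo-ADSCs. The ratio of miR-30e-5p to miR-30a-5p was 0.221 and 0.215 against 0.167, with overlapping intervals.

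The 3p arms came next. miR-30e-3p had 16 and 92 counts in Exo-AT against 5 in Exo-ADSCs, or 1265 and 626 against 77.9 TMM-scaled CPM. Both Exo-AT libraries were higher, though they differ from each other by more than those of any abundant 5p form. Its log2 fold change of 3.48 (SE 1.04, edgeR adjusted p = 0.00352) was not called with DESeq2's size factors in edgeR (3.24, adjusted p = 0.0688) or with tags of 20 to 25 nt only (2.20, adjusted p = 0.156). It was 2.99 when Exo-AT replicate 1 was left out, and 4.00 when Exo-AT replicate 2 was.

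miR-30a-3p had 8 and 64 counts in Exo-AT against 10 in Exo-ADSCs, which are 632 and 435 against 156 TMM-scaled CPM. Both Exo-AT values were higher, but its log2 fold change of 1.69 (SE 1.06) did not pass edgeR's test (adjusted p = 0.21). With tags of 20 to 25 nt only it was 0.05. The 10 Exo-ADSCs counts came from 2 tags, and 0 of these counts began at the form's common start. In Exo-AT 7 of 8 and 62 of 64 counts did. A mismatch or indel was in 7 of the 10 Exo-ADSCs counts. miR-30b-3p had 3 counts, all in Exo-ADSCs and all from 1 tag of 15 nt with a mismatch, and was not tested. miR-30c-3p and miR-30d-3p had 0 counts in the 3 libraries.

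The 5p arm outnumbered the 3p arm for miR-30a and miR-30e, the members with both arms among the tested forms. For miR-30a the ratio of 5p to 3p counts was 19.3 (exact 95% interval 9.53 to 45.4) and 33.9 (26.4 to 44.2) in Exo-AT, against 19.2 (10.2 to 40.7) in Exo-ADSCs. For miR-30e it was 2.13 (1.14 to 4.12) and 5.08 (4.05 to 6.42) in Exo-AT, against 6.40 (2.48 to 21.04) in Exo-ADSCs. The intervals of the groups overlap for both members. The 19.2 rests on 10 counts of miR-30a-3p, of which 0 began at its common start.

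Short 3p tags cannot always be given to 1 member. The leading tag that aligned to hairpins of more than 1 member is printed because its 16 bases are common to the 3p arms of miR-30a and miR-30e. Capitals mark the seed.
3p tag shared by miR-30a and miR-30e: cTTTCAGTcggatgtt

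It gave miR-30a-3p 3 and 17 counts in Exo-AT against 0 in Exo-ADSCs. Shared tags of this kind held 50.0% and 35.9% of miR-30a-3p counts and 25% and 25% of miR-30e-3p counts in Exo-AT, against 0% of either in Exo-ADSCs. They held at most 0.255% of any 5p form. With tags of a single named miRNA only, the log2 fold change of miR-30a-3p was 0.69 and that of miR-30e-3p was 2.84, still called (edgeR adjusted p = 0.0296).

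**Figure D3:**
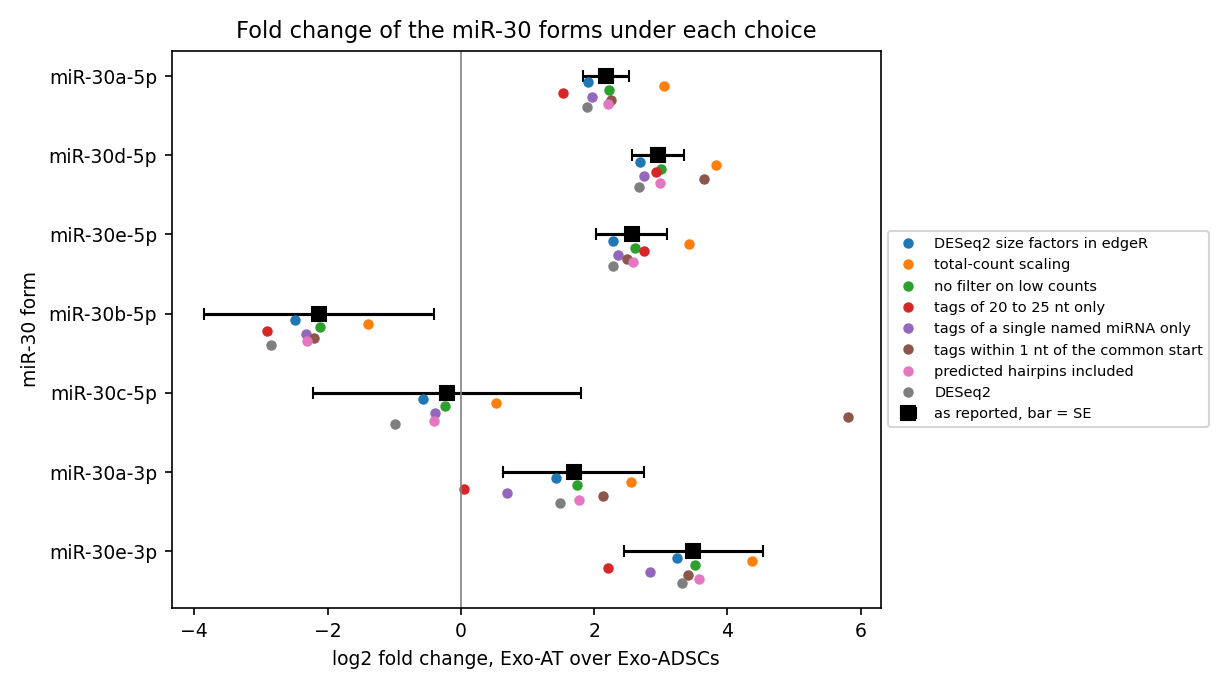
Log2 fold change of each miR-30 form, Exo-AT over Exo-ADSCs, as a black square with its SE as a bar. The SE was derived from the fold change and edgeR's F statistic. Coloured points give the value under each other processing choice. The 3 abundant 5p forms and miR-30e-3p stay above 0 under every choice drawn, while miR-30c-5p lies on both sides of 0.

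The miR-30 5p reads also differed in length. In Exo-AT the commonest length was 20 nt in either library, against 24 nt in Exo-ADSCs. Tags of 20 nt made up 33.7% and 32.0% of the miR-30 5p counts in Exo-AT, against 7.43% in Exo-ADSCs. Tags of 24 nt made up 12.3% and 19.2% in Exo-AT, against 26.0% in Exo-ADSCs, and tags of 16 nt 8.42% and 6.02% against 13.9%. Over the other named 5p forms, 20 nt tags held only 4.19% and 3.55% in Exo-AT, against 0.845% in Exo-ADSCs. Tags of 24 nt held 1.05% and 1.53% against 1.66% there, and tags of 16 nt 2.33% and 1.43% against 4.66%. Lengths shifted beyond the family too: tags of 21 to 23 nt held 70.3% and 77.7% of the other named 5p counts in Exo-AT, against 15.7% in Exo-ADSCs. In miR-30 those lengths held 31.6% and 26.04% against 25.4%. Length here is that of the whole tag, extra 5′ bases included. In Exo-ADSCs 43 of the 323 miR-30 5p counts had 3 extra 5′ bases, against 0 in either Exo-AT library. Tags with 1 extra base held 11 of 285 and 203 of 4235 counts in Exo-AT, against 0 in Exo-ADSCs. The shares by length were not tested, with 1 Exo-ADSCs library.

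The tags of miR-30a-5p that carry this difference are printed, with the seed in capitals, since they share the start and the seed and differ at the 3′ end. The leading tag of miR-30e-5p stands with them for its T in place of the C of the other member.
miR-30a-5p, 16 nt: tGTAAACAtcctcgac
miR-30a-5p, 20 nt: tGTAAACAtcctcgactgga
miR-30a-5p, 24 nt: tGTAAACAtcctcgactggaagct
miR-30e-5p, 19 nt: tGTAAACAtccttgactgg

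The 20 nt tag had 55 and 691 counts in Exo-AT (35.7% and 31.8% of miR-30a-5p) and 24 in Exo-ADSCs (12.5%). The 24 nt tag had 18 and 312 counts in Exo-AT (11.7% and 14.4%) and 57 in Exo-ADSCs (29.7%), where it was the leading tag. The 16 nt tag had 7 and 70 counts in Exo-AT against 18 in Exo-ADSCs. Both Exo-AT libraries were thus richer in the shorter of the 2 leading tags. The 20 nt tag with 3 extra 5′ bases is a 23 nt tag, with 0 and 0 counts in Exo-AT against 15 in Exo-ADSCs.

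In miR-30d-5p, 20 nt tags were at 33.0% and 30.6% in Exo-AT, against 0% in Exo-ADSCs (0 of 76 counts, Wilson upper bound 4.81%). Its 24 nt tags held 9.28% (95% Wilson interval 4.96 to 16.7) and 20.96% (19.01 to 23.04) in Exo-AT, against 25% (16.6 to 35.8) in Exo-ADSCs, which overlap. Of the 76 Exo-ADSCs counts of miR-30d-5p, 22 had 3 extra 5′ bases, which their tag length includes. In miR-30e-5p, 19 nt tags led in all 3 libraries, at 26.5% and 23.8% in Exo-AT, against 50.0% in Exo-ADSCs, and its 24 nt tags held 14.7% and 18.6% against 18.8%. Its printed 19 nt tag had 7 and 84 counts in Exo-AT against 13 in Exo-ADSCs.

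**Figure D4:**
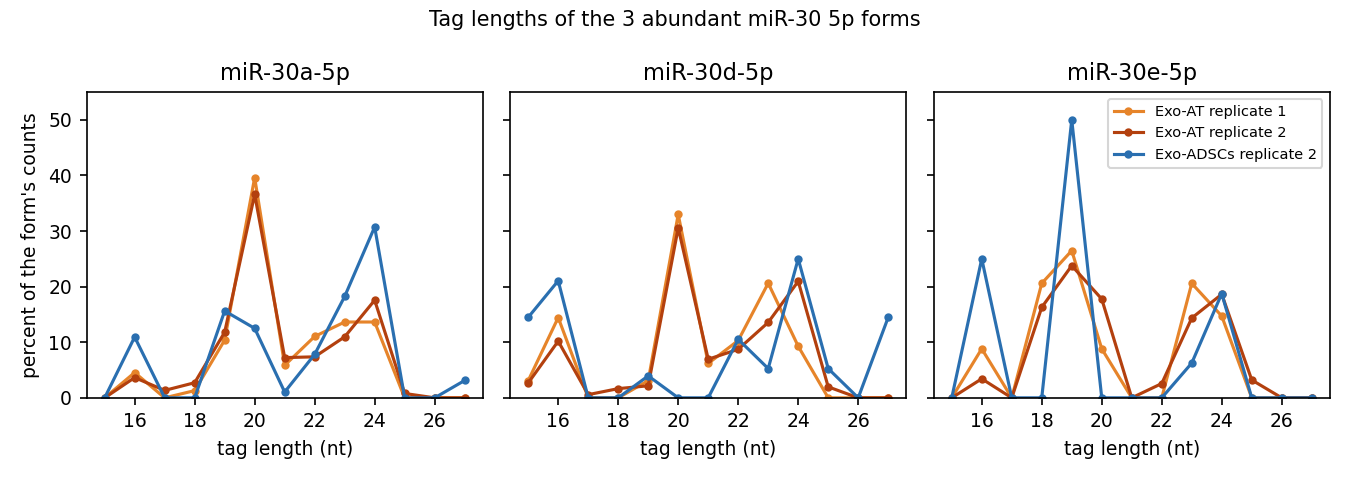
Tag lengths of the 5p forms of miR-30a, miR-30d and miR-30e, as the percent of each form's counts at each length in nt, 1 line per library. miR-30a-5p and miR-30d-5p peak at 20 nt in Exo-AT, against 24 nt in Exo-ADSCs, while miR-30e-5p peaks at 19 nt in all 3. Length is that of the whole tag, extra 5′ bases included.

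The authors' deposited table holds 45 miRNAs that they listed as raised in Exo-AT, so its direction is no independent evidence. Its 4 miR-30 entries give values for all 4 libraries, as normalized reads of the authors. For miR-30a-5p the authors' deposited table gives 11781 and 758 in Exo-AT, against 522 and 20 in Exo-ADSCs. For miR-30d-5p it gives 8156 and 766 in Exo-AT, against 447 and 84 in Exo-ADSCs, in the authors' deposited table. In the same authors' deposited table miR-30e-3p has 500 and 499 in Exo-AT against 18 and 7 in Exo-ADSCs, and miR-30a-3p has 348 and 125 against 13 and 14.

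In all 4 entries both Exo-AT values exceeded both Exo-ADSCs values, those of Exo-ADSCs replicate 1 included. A listing of miRNAs raised in Exo-AT favours this order, and its share over all 45 entries was not counted. The order is thus no added evidence for miR-30. Within Exo-AT the columns of the authors' deposited table differ 15.5-fold for miR-30a-5p and 10.6-fold for miR-30d-5p. Between the tag libraries the raw counts of these forms differ 14.1-fold and 16.2-fold, and the TMM-scaled levels 1.21-fold and 1.39-fold. For miR-30e-3p and miR-30a-3p the columns differ 1.002-fold and 2.78-fold, beside raw counts of 16 and 92, and of 8 and 64. Since the scaling of the authors' deposited table is not stated, the like measure is not known. The folds in the authors' deposited table are 22.3 for miR-30a-5p, 16.2 for miR-30d-5p, 22.6 for miR-30e-3p and 10.5 for miR-30a-3p. They equal the ratio of the authors' means with 10 added to each, in 4 of the 4 entries. Without that addition the means of the authors' deposited table stand at 23.1, 16.8, 39.96 and 17.5 to 1. From the tag counts of 3 libraries, with TMM scaling and without those 10, the corresponding fitted folds were 4.51, 7.80, 11.2 and 3.24. The authors' means also take in Exo-ADSCs replicate 1, so these folds are not like for like. For Exo-ADSCs replicate 2 the table's value per tag count was 1.40 for both 3p forms and 1.11 for miR-30d-5p, but 0.104 for miR-30a-5p, whose 20 normalized reads stand beside 192 counts.

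**Figure D5:**
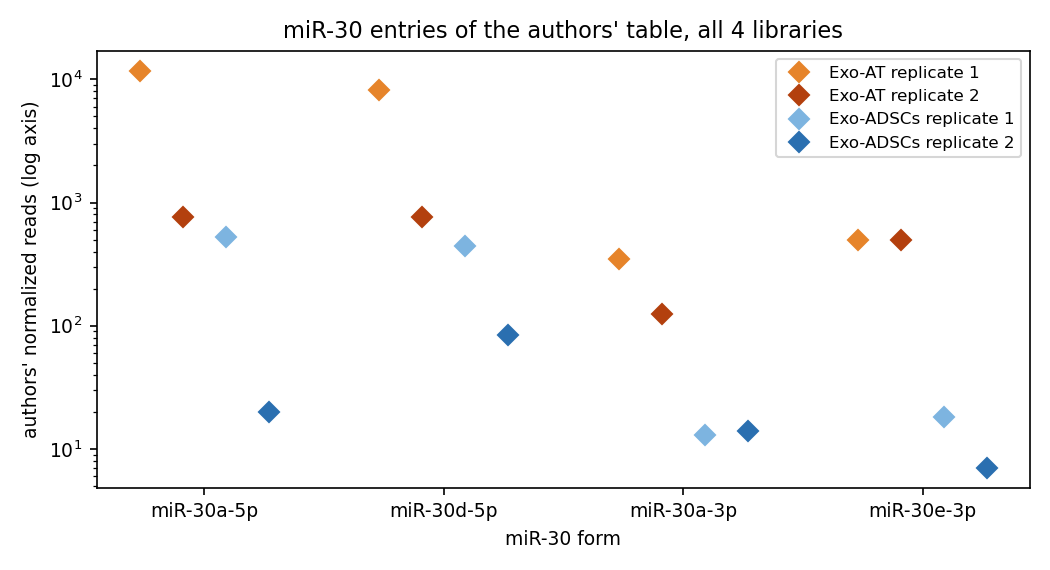
Normalized reads of the 4 miR-30 entries in the authors' deposited table on a log axis, 1 point per library, with the Exo-AT columns left of the Exo-ADSCs columns. Every Exo-AT value lies above every Exo-ADSCs value of the same entry, with the ratio of the authors' means from 16.8 for miR-30d-5p to 39.96 for miR-30e-3p. The authors listed these entries as raised in Exo-AT, which favours this order.

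Other miRNAs known to favour fat cell formation did not move as a block with miR-30. The list took both arms of 14 such precursors, so a form on it need not be the arm known for this. Of its 15 tested forms, 2 rose and 8 fell in Exo-AT by edgeR's test, and 5 were not called. Beside them, 19.1% of all tested miRNAs were called in each direction. All of these calls were lost with the predicted hairpins included. Their median log2 fold change was -0.87, with forms at 0 counts taken at their fitted value or at the bound that 3 counts allow. Over all 183 tested it was 0.37 as fitted and 0.25 with such forms at their bound.

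The risers were miR-204-5p, a regulator known to target RUNX2, and miR-26a-5p, known to favour fat cell formation from human adipose stem cells. miR-204-5p had 6 and 80 counts in Exo-AT against 3 in Exo-ADSCs, and a log2 fold change of 3.42 (SE 1.27, edgeR adjusted p = 0.0218). miR-26a-5p had 83 and 1297 counts in Exo-AT against 88 in Exo-ADSCs, and a log2 fold change of 2.50 (SE 0.39, edgeR adjusted p = 1.21e-08). Both were higher in both Exo-AT libraries.

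Of those that fell, miR-210-3p, known to be induced by low oxygen, had 3 and 47 counts in Exo-AT against 512 in Exo-ADSCs (log2 fold change -4.72). miR-103-3p, known for its part in insulin sensitivity, had 6 and 62 counts in Exo-AT against 144 in Exo-ADSCs (log2 fold change -2.35). miR-21-3p had 0 and 0 counts in Exo-AT against 84 in Exo-ADSCs, at least 10.2-fold lower with each Exo-AT library at 3 counts. miR-146b-3p had 0 and 0 counts against 32, at least 3.87-fold lower on the same floor. Of their other arms, miR-21-5p had a log2 fold change of -0.97 (edgeR adjusted p = 0.00168). miR-146b-5p had one of 1.18 and was not called (edgeR adjusted p = 0.0868).

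The tested miRNAs outside the family whose levels ran most like the miR-30 5p total were miR-26a-5p, miR-127-3p and miR-425-5p. Likeness was the Euclidean distance between centred log2 profiles over the 3 libraries, which was 0.119, 0.249 and 0.260. miR-26a-5p stood at 6561 and 8822 TMM-scaled CPM in Exo-AT, against 1371 in Exo-ADSCs. miR-127-3p stood at 1739 and 1755 against 327, and miR-425-5p at 2688 and 2864 against 639.

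Marker lists of other cell types did not share a direction. miR-126a, the 1 endothelial marker used, summed to 2767 and 4721 TMM-scaled CPM in Exo-AT, against 499 in Exo-ADSCs. The leukocyte list had 3 and 4 of 4 precursors detected in Exo-AT, summing to 474 and 1054 TMM-scaled CPM. Exo-ADSCs had 1 of 4 detected and a sum of 234, with miR-223, miR-150 and miR-155 at 0. In Exo-AT replicate 1 miR-223 was at 0 too, and 3 counts amount to 237 TMM-scaled CPM there. The erythroid list (2 and 3 of 3 detected in Exo-AT, 3 of 3 in Exo-ADSCs) summed to 36834 and 154500 against 50789.

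The mesenchymal stromal list (3 and 4 of 4 detected in Exo-AT, 4 of 4 in Exo-ADSCs) summed to 143780 and 123890 TMM-scaled CPM against 242630, so its markers were present under both labels. Nearly all of this sum was miR-143-3p, at 139430 and 119300 against 235990. The same form is also among those that fell in the list of miRNAs known to favour fat cell formation. The muscle list (1 and 3 of 5, against 3 of 5) summed to 1423 and 1360 against 312, with miR-1 and miR-133b at 0 throughout. The epithelial list (5 and 7 of 8, against 5 of 8) summed to 1976 and 1748 against 3616. miR-122, the liver marker, stood at 474 and 429 against 343, and the neural pair summed to 3320 and 592 against 203. Of the tested forms, edgeR called 1 of 2 endothelial, 1 of 2 erythroid, 1 of 3 leukocyte, 1 of 2 muscle and 1 of 1 neural forms higher. It called 2 of 6 epithelial forms higher and 1 lower, and 2 of 6 mesenchymal stromal forms lower. The liver form was not called. Over all tested miRNAs 19.1% were called in each direction, and all calls were lost with the predicted hairpins included. The part of these cell types in the miR-30 difference was not tested.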

How the data were processed

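Per the file headers, each tag file gives the authors' whole-number count for every read sequence and the hairpin it aligned to. Novoalign 2.07.11 and rn6 come from the submitters' processing notes; adaptor trimming is not given in the sources used here. The authors' deposited table holds normalized reads, used as a score because its scaling is not stated, and the authors' fold, a deposited ratio. The file of Exo-ADSCs replicate 1 summarises reads by class and was not used.

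Tags were given the 5p or 3p arm by their midpoint on the hairpin, after correcting positions by 5 bases, and copies were summed. This gave 348 named forms. A tag aligned to more than 1 hairpin kept its count on each, so its reads may be counted more than once. The 5′ ends of miR-30 5p tags were placed by the run CATC, which begins within the seed. Tags with that run were taken to hold the seed, and the other seed bases were not checked. edgeR 4.0.16 (R 4.3.3) ran on the deposited counts with TMM scaling (factors 1.39, 1.08 and 0.664 for Exo-AT replicates 1 and 2 and Exo-ADSCs replicate 2), its default filter (minimum count 10, minimum total 15) and the quasi-likelihood test, two-sided, called at an adjusted p of 0.05 over 183 forms. The SE given with a log2 fold change was derived as its absolute value over the square root of the quasi-likelihood F statistic. The lone Exo-ADSCs library is assumed to vary like the Exo-AT libraries. DESeq2 1.42.0 was an alternative.

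Every miR-30 form is named, with list members that passed (at most 6, largest change first) and the 3 most alike miRNAs; likeness used log2 of TMM-scaled CPM plus 1. Other items were chosen after their values were seen. The members and lists were chosen with earlier results of these data known.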

Additional observations from a re-analysis of the deposited data

How the results depend on the processing

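The 5p forms of miR-30a, miR-30d and miR-30e were called higher in Exo-AT under every tested alternative except the one with predicted hairpins, where their log2 fold changes were 2.20, 2.99 and 2.58. With predicted hairpins included, 0 miR-30 forms and 0 of 401 features in either direction were called by edgeR, with 25 at an unadjusted p under 0.05; the cause was not tested. Across alternatives the edgeR and DESeq2 adjusted p ran from 5.53e-09 to 0.535 for miR-30a-5p, 3.91e-12 to 0.511 for miR-30d-5p, 5.06e-08 to 0.543 for miR-30e-5p and 0.000179 to 0.553 for miR-30e-3p. With tags of 20 to 25 nt only, 1 form was called lower, miR-30b-5p (log2 fold change -2.91, edgeR adjusted p = 0.0397), and the miR-30 5p total had a log2 ratio of 1.76, against 2.35 as reported. That ratio was 3.23 with total-count scaling and 2.16 to 2.52 with either Exo-AT replicate left out. miR-30c-5p turned to 0.53 with total-count scaling and to 5.81 with tags near the common start, where Exo-ADSCs had 0 counts, so that value is no bound.

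Over all miRNAs, 23 were called higher with DESeq2's size factors and 19 lower with total-count scaling, against 35 each as reported; the split was 46 higher and 19 lower with total-count scaling. The median of all forms was 0.37 with TMM, 0.08 with DESeq2's size factors and 1.21 with total counts. Relative to it miR-30a-5p was 1.80, 1.82 and 1.84 higher, and miR-30d-5p 2.59, 2.60 and 2.61. Scaling moves all forms nearly alike, so these distances could hardly change. Other choices can move them: tags of 20 to 25 nt only, tags near the common start and no filter on low counts. Under these, in that order, miR-30a-5p was 1.16, 1.45 and 2.57 above the median of all forms. For miR-30d-5p the values were 2.56, 2.84 and 3.36. No paired analysis was possible because, among the libraries with tag counts, the groups share only replicate number 2. Leaving out an Exo-AT replicate gives values with no test. The 9134 reads of Exo-AT replicate 1 limit what can be said of miR-30b-5p and miR-30c-5p.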

Other observations

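The 5′ ends of the miR-30 5p tags differed between the libraries. Tags that carried the mature start held 90.9% and 86.6% of miR-30 5p counts in Exo-AT, against 79.3% in Exo-ADSCs. Tags with the first base missing, whose bases 2 to 8 are shifted by 1, held 4.21% and 6.52% in Exo-AT, against 0% in Exo-ADSCs (0 of 323 counts, which allows up to 3 counts). Tags with 1 extra base held 11 of 285 and 203 of 4235 counts in Exo-AT, against 0 of 323 in Exo-ADSCs. Tags with 3 extra bases held 0 and 0 counts in Exo-AT, against 43 of 323 in Exo-ADSCs, 22 of them among the 76 of miR-30d-5p. None of these extra bases matched the aligned hairpin (0 of 11, 0 of 203 and 0 of 43 counts). A leading example of each is printed, with capitals for bases 2 to 8 of the shortened tag and for the extra bases of the lengthened one.
miR-30a-5p, first base missing: gTAAACATcctcgactgga
miR-30a-5p, 3 extra bases: ACGtgtaaacatcctcgactgga

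The first had 5 and 113 counts in Exo-AT against 0 in Exo-ADSCs, and the second 0 and 0 counts in Exo-AT against 15 in Exo-ADSCs. A G-to-T change at the mature RNA's position 2 was seen in 5.26% and 7.56% of miR-30 5p counts in Exo-AT, against 0% in Exo-ADSCs. It was also seen in the other named 5p forms with a G there, at 4.51% and 7.68% in Exo-AT, against 0.0805% in Exo-ADSCs. The shares of these other forms cover only tags at the common start, while those of miR-30 cover all its 5p tags. What gives rise to these ends was not tested.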
